A study of Mus musculus with 20 samples.

Results

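The genes described here encode the NF-κB transcription factors and the IκB proteins that bind them: the subunits Nfkb1, Nfkb2, Rel, Rela and Relb, the classical inhibitors Nfkbia, Nfkbib and Nfkbie, and the atypical IκB proteins Nfkbiz and Bcl3. They were chosen by name as members of this family, with earlier results of these data known. They are 10 of 55487 genes in the count table, and all 10 passed the filter on low counts that left 12799 genes to test. Their mRNA was measured by RNA-Seq in BV-2 cells, an immortalised line of mouse microglia (the resident immune cells of the brain), wild type throughout. Young (control) BV-2 microglia at low passage were compared with aged BV-2 microglia, which are the same line after long-term cultivation. Each was left untreated or exposed for 6 hours to 100 ng/ml lipopolysaccharide (LPS), the bacterial cell wall component sensed by TLR4. This gives 4 groups of 5 cultures, numbered 1 to 5 by a batch number in the labels that recurs in every group. The aged cells were frozen after their cultivation and used as aliquots, and the paper states that aliquots of aged and control cells were thawed together. Whether the 5 aged cultures trace back to more than 1 such cultivation is not given in the sources used here, so p-values measure the spread between these cultures.

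NF-κB factors are dimers of these 5 subunits, all of which share the Rel homology domain. Rela, Rel and Relb carry a transactivation domain, whereas Nfkb1 and Nfkb2 encode the precursors p105 and p100, which are shortened to p50 and p52 and in precursor form act as inhibitors themselves. Classical IκB proteins hold the dimers in the cytoplasm until the IKK kinases mark them for destruction, and in microglia and macrophages this step follows within minutes of LPS binding to TLR4. Several members of the family are themselves textbook targets of NF-κB, Nfkbia being the best known, so that the pathway rebuilds its own inhibitor.

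The kappaB consensus, the 10-base element that the dimers bind, was searched on both strands in the RefSeq promoter windows (GRCm38.p6) from 250 bases before to 50 bases after each start site. Windows were in the table for 7 of the 10 genes, and those of Nfkb1, Relb and Nfkbiz were not used here. A match was present for 5 of the 7, against 9.55% of 27025 genes with a window of this length. The matches are printed 5′ to 3′ on the strand of the gene with 30 bases each, and capitals mark the bases that match. They are shown because the genes that carry them and those that do not both rose with LPS in the data below.
Nfkb2, chr19:46304689-46304718, plus strand: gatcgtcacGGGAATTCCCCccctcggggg
Nfkb2, second start, chr19:46305450-46305479, plus strand: ccgacggcaGGAATGTCCCcacaaaagccc
Nfkb2, second start, chr19:46305696-46305725, plus strand: ggtattttcGGGACTTTCCtaagcagcact
Rel, chr11:23771041-23771070, minus strand: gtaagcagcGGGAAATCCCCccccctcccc
Nfkbia, chr12:55492656-55492685, minus strand: gactggcttGGAAATTCCCcgcgcctgacc
Nfkbie, chr17:45555585-45555614, plus strand: cagcaaacaGGGGGATTCCggaggggcggg
Bcl3, chr7:19822733-19822762, minus strand: cggcggcagGGGAAGTCCCgctgcccggcg

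The first Nfkb2 match begins 39 bases before its start site, in a stretch that GENCODE places in the first exon of a longer Nfkb2 transcript, and a further match, GGGGCTTTCC, begins 11 bases before the start. Where 11 capitals stand together, 2 overlapping matches are joined. Of the matches at the second Nfkb2 start, GGAATGTCCC begins 236 bases before that start and GGGACTTTCC at base 11 after it, inside the transcript. The latter also begins 225 bases before a further Nfkb2 start. The Rel match begins 92 bases, the Nfkbia match 29 bases and the Nfkbie match 106 bases before the start, and the Bcl3 match begins at base 3 of the transcript. For Nfkbia and Nfkbie, whose 150 bases before the start hold no annotated exon, the wider stretch shows the match in its context.
Nfkbia, chr12:55492648-55492797, minus strand: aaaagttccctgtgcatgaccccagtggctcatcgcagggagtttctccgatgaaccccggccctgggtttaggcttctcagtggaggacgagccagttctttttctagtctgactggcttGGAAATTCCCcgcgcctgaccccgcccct
Nfkbie, chr17:45555550-45555699, plus strand: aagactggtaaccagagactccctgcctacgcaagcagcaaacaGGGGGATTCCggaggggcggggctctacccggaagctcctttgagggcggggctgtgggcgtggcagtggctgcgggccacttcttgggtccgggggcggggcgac
No match lay in the windows of Rela and Nfkbib. A match describes letters, and binding was not measured.

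The 20 libraries held 11371508 to 16829292 counts, and mitochondrial genes took 0.517% to 1.30% of them. Each of the 11 microglia and macrophage markers was above the floor of 3 counts in at least 1 library of every group, other than P2ry12, which was at or below it in all LPS-treated aged cultures and at 0 in at least 1 LPS-treated young culture. Summed levels of that list ranged from 2657 to 3753 CPM (read counts relative to the size of the library) in young untreated, 2240.0 to 3187 in aged untreated, 3335 to 4552 in young LPS-treated and 2816 to 3876 in aged LPS-treated cultures. Neuron, astrocyte and fibroblast lists summed to at most 1.26 CPM in any library, with Snap25, Aqp4 and Pdgfra at 0 in every one. The oligodendrocyte list summed to 15.5 to 23.2 CPM, nearly all of it Cnp with Mog at 0, and the endothelial list to 66.2 to 112 CPM, nearly all of it Kdr with Cldn5 at 0. Values below are CPM on library sizes scaled by TMM, edgeR's trimmed mean normalisation, given for cultures 1 to 5 in order.

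**Figure D1:**
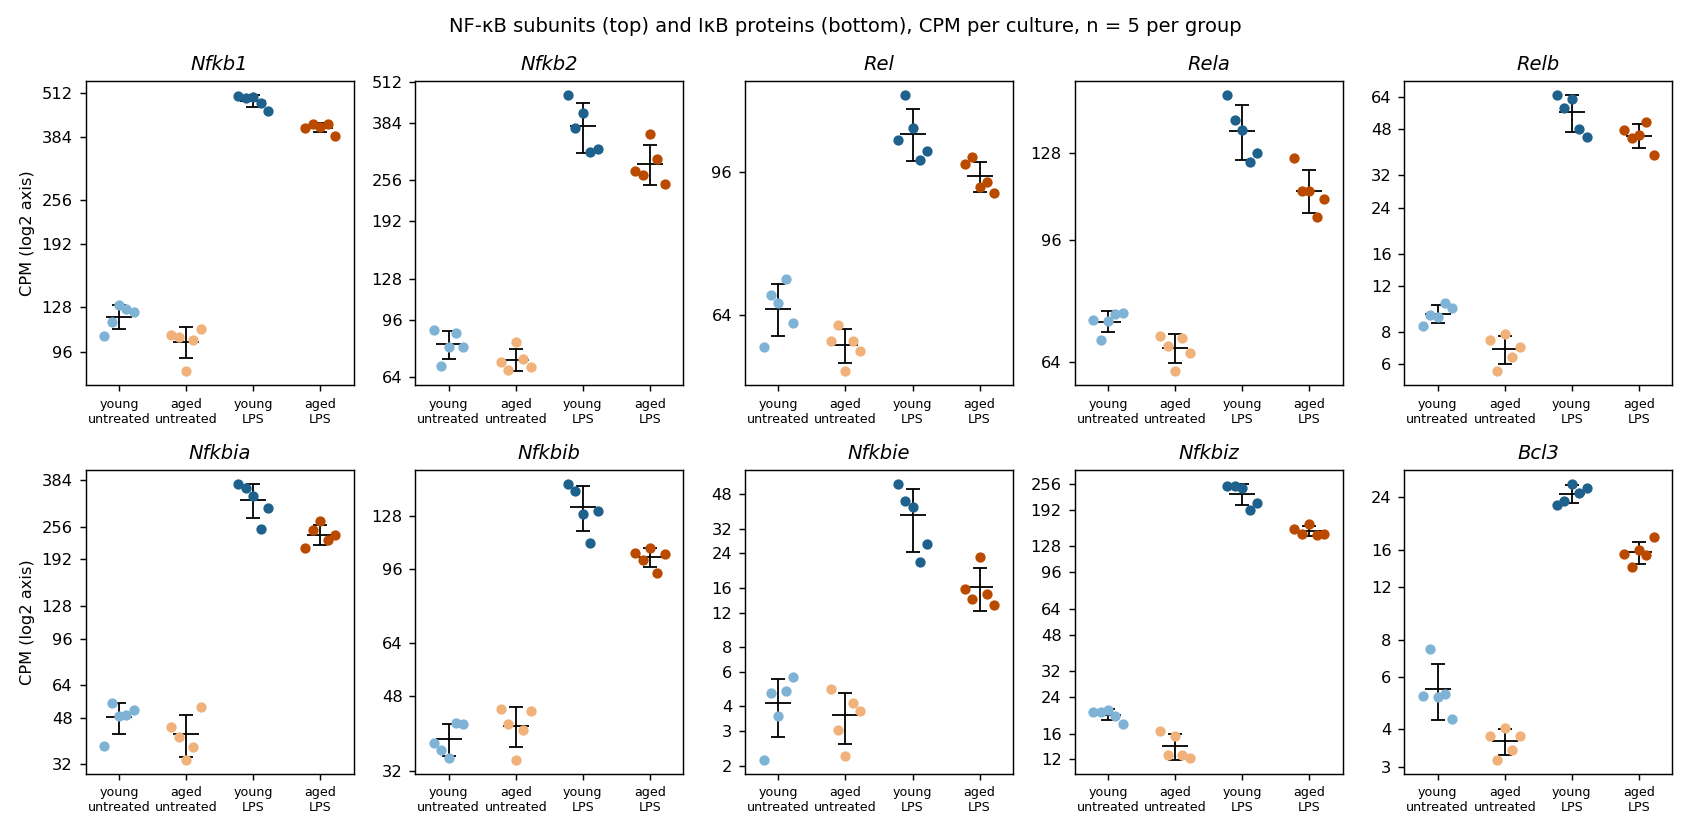
CPM of the 5 subunits (top) and 5 IκB proteins (bottom) in each culture of the 4 groups, in the order of cultures 1 to 5 within a group, on log2 axes that differ between panels and do not start at 0. Dots are cultures, and black bars are the mean and SD. For each of the 10 genes, the 10 LPS-treated cultures lie above the 10 untreated ones.

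LPS raised all 10 genes in young and in aged BV-2 microglia, from 1.64-fold for Rel to 11.6-fold for Nfkbiz in young cells and from 1.62-fold for Rel to 10.9-fold for Nfkbiz in aged cells. In edgeR's quasi-likelihood test, with p-values adjusted over all genes, 10 of 10 were higher in the young comparison, in which 31.2% of all tested genes were higher, and 10 of 10 in the aged comparison, in which 27.5% were higher. Treated and untreated cultures did not overlap for any of the 10 genes at either age, where 23.9% of all genes in young and 21.0% in aged cells were higher without overlap. The median log2 fold change of the 10 genes was 2.19 in young and 2.05 in aged cells, against −0.01 and 0.00 over all genes tested. On library sizes alone, without the scaling, the median of all genes moved to −0.23 and −0.16, and all 10 genes again passed as higher at both ages.

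Among the subunits, Nfkb1 (ENSMUSG00000028163, chr3:135584655-135691547, minus strand), the p105/p50 gene, stood at 106, 116, 129.7, 126 and 124 CPM in young untreated cultures and at 499.7, 495, 498, 479 and 453 CPM after LPS. In aged cells it went from 107, 106, 84.5, 104 and 111 CPM to 407, 417, 410.5, 418 and 388 CPM. The treated values of aged cells all lay below those of young cells, whereas the untreated values overlapped. The log2 fold change with LPS was 2.01 in young cells (SE 0.06, edgeR adjusted p = 3.14e-17) and 2.00 in aged cells (SE 0.06, edgeR adjusted p = 5.83e-17).

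Nfkb2 (ENSMUSG00000025225, chr19:46304320-46312385, plus strand), whose precursor p100 retains Relb dimers and is processed to p52 in the alternative pathway, stood at 89.1, 69.2, 79.1, 87.2 and 79.4 CPM in young untreated and 71.3, 67.4, 82.0, 72.6 and 68.9 CPM in aged untreated cultures. After LPS it reached 467, 369, 410.2, 312 and 319.5 CPM in young and 273, 265, 354, 296 and 249.8 CPM in aged cultures. Young culture 1 was the highest and young cultures 4 and 5 the lowest of the treated young ones, and they overlapped with aged culture 3. Of the exon bases of Nfkb2, 11.6% are shared with AC114539.1 and 6.52% with Psd on the other strand, which held at most 396 and 125 counts per library against at least 1002 for Nfkb2. The LPS response was log2 2.22 (SE 0.11) in young and 1.99 (SE 0.11) in aged cells.

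Relb (ENSMUSG00000002983, chr7:19606217-19629438, minus strand), the transactivating partner of p52, had the lowest level per length of the subunits before LPS. It stood at 8.42, 9.27, 9.12, 10.4 and 9.92 CPM in young and 7.44, 5.65, 7.88, 6.43 and 6.99 CPM in aged cultures. All aged values lay below all young ones. After LPS it stood at 65.1, 58.1, 62.8, 48.1 and 44.9 CPM in young and 47.6, 44.5, 45.5, 51.3 and 38.1 CPM in aged cultures, and these overlapped. Its response was the largest among the subunits on the log2 scale, 2.56 (SE 0.11) in young and 2.72 (SE 0.11) in aged cells.

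Rela (ENSMUSG00000024927, chr19:5637483-5648130, plus strand), which encodes p65, the main transactivating subunit of the classical pathway, changed less. It stood at 73.5, 68.8, 73.4, 74.9 and 75.2 CPM in young untreated and 69.8, 67.6, 62.0, 69.4 and 65.9 CPM in aged untreated cultures. With LPS it reached 155, 143, 138, 124 and 128 CPM in young and 126, 113, 113, 104 and 109.9 CPM in aged cultures. Treated aged culture 1 fell within the range of the young ones, and the 4 others lay below all of them. The increase was 1.88-fold in young (log2 0.91, SE 0.06) and 1.69-fold in aged cells (log2 0.76, SE 0.06).

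Rel (ENSMUSG00000020275, chr11:23736847-23770970, minus strand), the c-Rel subunit of lymphoid and myeloid cells, had the smallest response of the family. Its untreated levels were 58.4, 67.7, 66.2, 70.9 and 62.5 CPM in young and 59.4, 62.2, 54.5, 59.4 and 57.7 CPM in aged cultures. With LPS they were 105, 119.7, 109, 99.4 and 102 CPM in young and 98.2, 100.2, 92.2, 93.5 and 90.6 CPM in aged cultures, with 1 aged culture above the lowest young one. The log2 fold changes were 0.72 (SE 0.06, edgeR adjusted p = 2.43e-10) and 0.69 (SE 0.06, edgeR adjusted p = 8.03e-10).

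Of the classical inhibitors, Nfkbia (ENSMUSG00000021025, chr12:55489410-55492647, minus strand) encodes IκBα, the fast-acting feedback inhibitor. It stood at 37.5, 54.8, 48.7, 49.4 and 51.3 CPM in young untreated and 44.5, 40.5, 33.2, 37.2 and 52.9 CPM in aged untreated cultures. LPS took it to 373, 358, 336, 252 and 301 CPM in young and 212, 249, 269, 227 and 237 CPM in aged cultures. Young culture 4, at 252 CPM, lay below aged culture 3 at 269 CPM, and all other treated young cultures lay above all aged ones. The responses were 6.69-fold (log2 2.74, SE 0.12) and 5.74-fold (log2 2.52, SE 0.12).

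Nfkbib (ENSMUSG00000030595, chr7:28758251-28767512, minus strand) encodes IκBβ, which is degraded and replaced more slowly. It stood at 37.2, 35.7, 34.2, 41.5 and 41.3 CPM in young untreated and 44.6, 41.2, 33.9, 40.0 and 44.3 CPM in aged untreated cultures. With LPS it stood at 153, 146, 129.7, 111 and 131 CPM in young and 105, 101, 108, 93.6 and 104 CPM in aged cultures. The untreated groups overlapped and the treated ones did not. It rose 3.53-fold in young cells (log2 1.82, SE 0.08) and 2.50-fold in aged cells (log2 1.32, SE 0.08). Ccer2 and Sirt2 on the other strand share 14.5% and 1.94% of its exon bases, Ccer2 with at most 2 counts in any library and Sirt2 with 556 to 983.

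Nfkbie (ENSMUSG00000023947, chr17:45555703-45563169, plus strand) encodes IκBε, a late feedback inhibitor that acts beside IκBα. It had the lowest level per length of the classical inhibitors and varied most between treated young cultures relative to its mean. It stood at 2.14, 4.67, 3.56, 4.81 and 5.66 CPM in young untreated and 4.92, 3.03, 2.23, 4.17 and 3.80 CPM in aged untreated cultures. With LPS it stood at 54.3, 44.5, 41.5, 21.6 and 26.7 CPM in young and 15.9, 14.0, 23.0, 14.9 and 13.1 CPM in aged cultures. Young culture 1 held both the lowest untreated and the highest treated value of its age, and 4 of 5 treated aged cultures lay below all young ones. It rose 8.99-fold in young (log2 3.17, SE 0.26) and 4.48-fold in aged cells (log2 2.16, SE 0.27), from 31 to 85 counts per untreated library to 170 to 602 after LPS.

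The atypical gene Nfkbiz (ENSMUSG00000035356, chr16:55811375-55838899, minus strand) encodes IκBζ, a nuclear cofactor needed for a later wave of genes such as Il6. It had the largest response of the family. It went from 20.4, 20.3, 20.8, 19.4 and 17.8 CPM to 251, 251, 246, 192 and 208 CPM in young cultures. In aged cultures it went from 16.4, 12.6, 15.6, 12.6 and 12.3 CPM to 156, 146, 164, 145 and 147 CPM. Aged values lay below all young ones before and after LPS. The log2 fold changes with LPS were 3.54 (SE 0.09) and 3.45 (SE 0.09).

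Bcl3 (ENSMUSG00000053175, chr7:19808462-19822770, minus strand), a nuclear partner of p50 and p52 homodimers, showed the same separation by age. It went from 5.17, 7.42, 5.13, 5.27 and 4.33 CPM to 22.5, 23.3, 26.6, 24.8 and 25.6 CPM in young cultures. In aged cultures it went from 3.82, 3.16, 4.05, 3.41 and 3.80 CPM to 15.5, 13.9, 16.0, 15.3 and 17.6 CPM. Young culture 2 was the highest of the untreated young ones, and every aged culture lay below every young one at the same treatment. The responses were log2 2.17 (SE 0.11) and 2.10 (SE 0.11). Gm16175, which shares 6.51% of its exon bases on the other strand, held at most 1 count.

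With LPS, all 10 genes were lower in aged than in young BV-2 microglia, by log2 0.17 for Rel to 1.21 for Nfkbie. All 10 passed the test in this direction, in which 15.0% of all tested genes were lower, and the median difference was −0.39 against 0.01 over all genes. The groups did not overlap for 4 of them (Nfkb1, Nfkbib, Nfkbiz and Bcl3), where 8.16% of all genes were lower without overlap. In these bulk libraries, fewer expressing cells and less mRNA per cell cannot be told apart. Microglia and macrophage markers moved with this comparison. The mean was lower in treated aged cultures for 10 of 11, and the groups did not overlap for 4. Ptprc was at 232 to 269 against 286 to 366 CPM, Adgre1 at 259.6 to 388 against 416 to 559 CPM, Spi1 at 493 to 559 against 589 to 685 CPM and Aif1 at 3.46 to 6.29 against 8.99 to 17.3 CPM. The ranges of the summed list overlapped, and the part of these markers in the result was not tested.

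Nfkbie had the largest difference, 16.2 ± 3.96 against 37.7 ± 13.4 CPM (SD, n = 5), 2.31-fold lower (log2 −1.21, SE 0.22, edgeR adjusted p = 2.74e-04). The atypical IκB proteins followed. Bcl3 was 1.57-fold lower at 15.7 ± 1.31 against 24.6 ± 1.67 CPM (log2 −0.65, SE 0.10, edgeR adjusted p = 2.96e-05). Nfkbiz was 1.51-fold lower at 152 ± 8.07 against 229.6 ± 27.8 CPM (log2 −0.60, SE 0.08, edgeR adjusted p = 5.75e-06). These 3 genes had the largest differences of the family.

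Nfkbia and Nfkbib were lower by similar amounts, Nfkbia at 239 ± 21.4 against 324 ± 48.6 CPM (log2 −0.44, SE 0.11, edgeR adjusted p = 0.00487). Nfkbib was at 102 ± 5.34 against 134 ± 16.4 CPM (log2 −0.39, SE 0.08, edgeR adjusted p = 7.55e-04). Among the subunits Nfkb2 differed most, at 288 ± 40.8 against 376 ± 64.6 CPM (log2 −0.38, SE 0.10, edgeR adjusted p = 0.00652). Relb (log2 −0.30, edgeR adjusted p = 0.0246), Rela (log2 −0.28, edgeR adjusted p = 8.70e-04), Nfkb1 (log2 −0.25, edgeR adjusted p = 0.00369) and Rel (log2 −0.17, edgeR adjusted p = 0.0258) differed by at most 1.23-fold each.

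The calls of Rel and Relb depend on the setting. On library sizes alone, without TMM, they missed the threshold (edgeR adjusted p = 0.237 and 0.0887) and the other 8 genes passed it. With only the LPS-treated groups in the fit both also missed it (edgeR adjusted p = 0.0511 and 0.0682), and Rel did so with no filter on low counts (edgeR adjusted p = 0.0883). The TMM factor of a treated library was between 0.891 and 0.931 where the cells were young and between 0.952 and 0.973 where they were aged. Relb also missed the threshold without batch 1, 2 or 3 (edgeR adjusted p = 0.0861 to 0.118), Rel without batch 2, 3 or 5 (edgeR adjusted p = 0.0717 to 0.0984) and Nfkb2 without batch 1 (edgeR adjusted p = 0.0596).

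Each batch holds 1 culture of every group, so the comparison could be read within batches. The treated aged culture was below the treated young culture of its batch in 5 of 5 batches for 9 genes, and in 4 of 5 for Relb, which was higher by log2 0.09 in batch 4. The share of all genes lower in every batch was not computed. Same-numbered treated cultures of the 2 ages hardly deviated together on average (mean r 0.042, from −0.21 to 0.27 over the 5 batches). With the batch number as a block, calls over all genes in this comparison went from 3717 to 4280, and all 10 genes passed again. The range over batches was widest for Nfkbie, −1.77 to −0.53, and narrow for Nfkb1, −0.29 to −0.20, and Bcl3, −0.74 to −0.53.

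**Figure D2:**
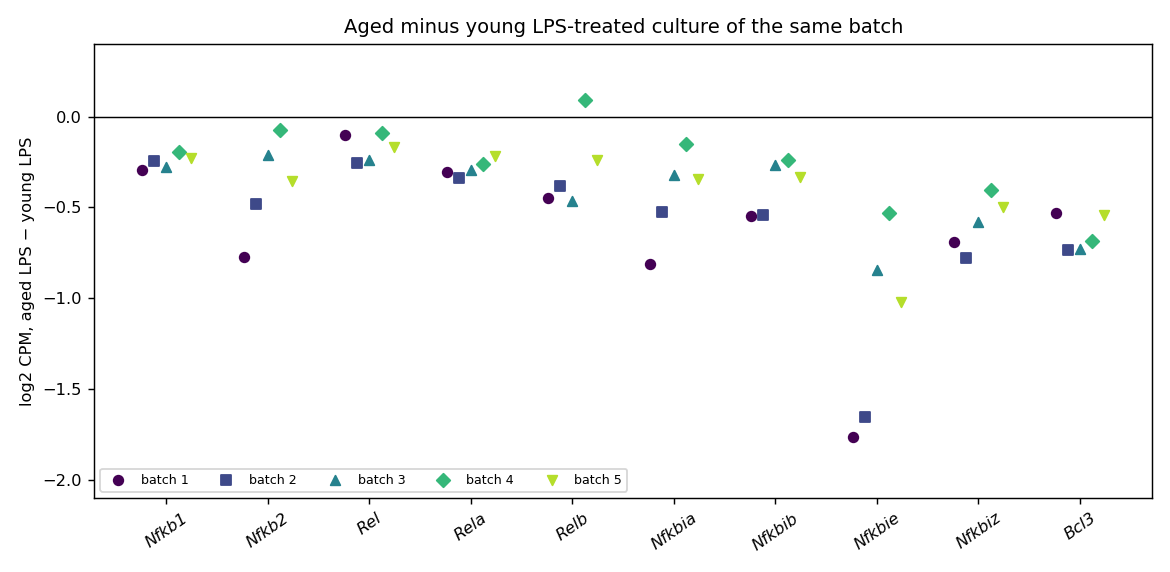
Difference in log2 CPM between the aged and the young LPS-treated culture of the same batch, for 10 genes and 5 batches. Each symbol is 1 batch, and 0 marks equal levels. Only Relb in batch 4, at 0.09, lies above 0.

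Before LPS fewer of the genes passed the comparison by age. 4 of the 10 genes were lower in aged cells (Nfkb1, Relb, Nfkbiz and Bcl3) and 0 were higher, in a comparison in which 7.81% of all tested genes were lower. The groups did not overlap for Relb, Nfkbiz and Bcl3, where 6.63% of all genes were lower without overlap. Of the 11 microglia and macrophage markers, 10 had a lower mean in untreated aged cultures and 1 did so without overlap, Aif1 at 4.78 to 7.08 against 9.31 to 16.9 CPM, and their part was not tested. Bcl3 stood at 3.65 ± 0.356 against 5.46 ± 1.15 CPM (log2 −0.58, SE 0.12, edgeR adjusted p = 0.00363) and Nfkbiz at 13.9 ± 1.95 against 19.7 ± 1.18 CPM (log2 −0.51, SE 0.09, edgeR adjusted p = 0.00115).

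Relb stood at 6.88 ± 0.870 against 9.41 ± 0.749 CPM (log2 −0.45, SE 0.12, edgeR adjusted p = 0.0198) and lost its call without batch 2 or 4 (edgeR adjusted p = 0.135 and 0.0869). Nfkb1 stood at 102 ± 10.4 against 120.4 ± 9.38 CPM (log2 −0.23, SE 0.06, edgeR adjusted p = 0.0175). Its difference fell to −0.14 without batch 3, which holds the lowest aged culture (edgeR adjusted p = 0.127), and its call was also lost without batch 2 or 4 (edgeR adjusted p = 0.0708 and 0.0867). With only the 2 untreated groups in the fit it narrowly missed the threshold (edgeR adjusted p = 0.0559).

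The other 6 genes did not pass. Rel differed by log2 −0.15 (95% interval −0.27 to −0.03, edgeR adjusted p = 0.0950) and passed with the batch number as a block (edgeR adjusted p = 0.0479) and without young culture 1, the lowest of its group (edgeR adjusted p = 0.0440). The values were −0.13 (−0.252 to −0.00353) for Rela, −0.16 (−0.38 to 0.06) for Nfkb2 and −0.22 (−0.47 to 0.03) for Nfkbia. Nfkbib was the gene of the family with a positive value, 0.10 (−0.07 to 0.28). For Nfkbie, at −0.20, the interval of −0.83 to 0.42 leaves room for differences in either direction.

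**Figure D3:**
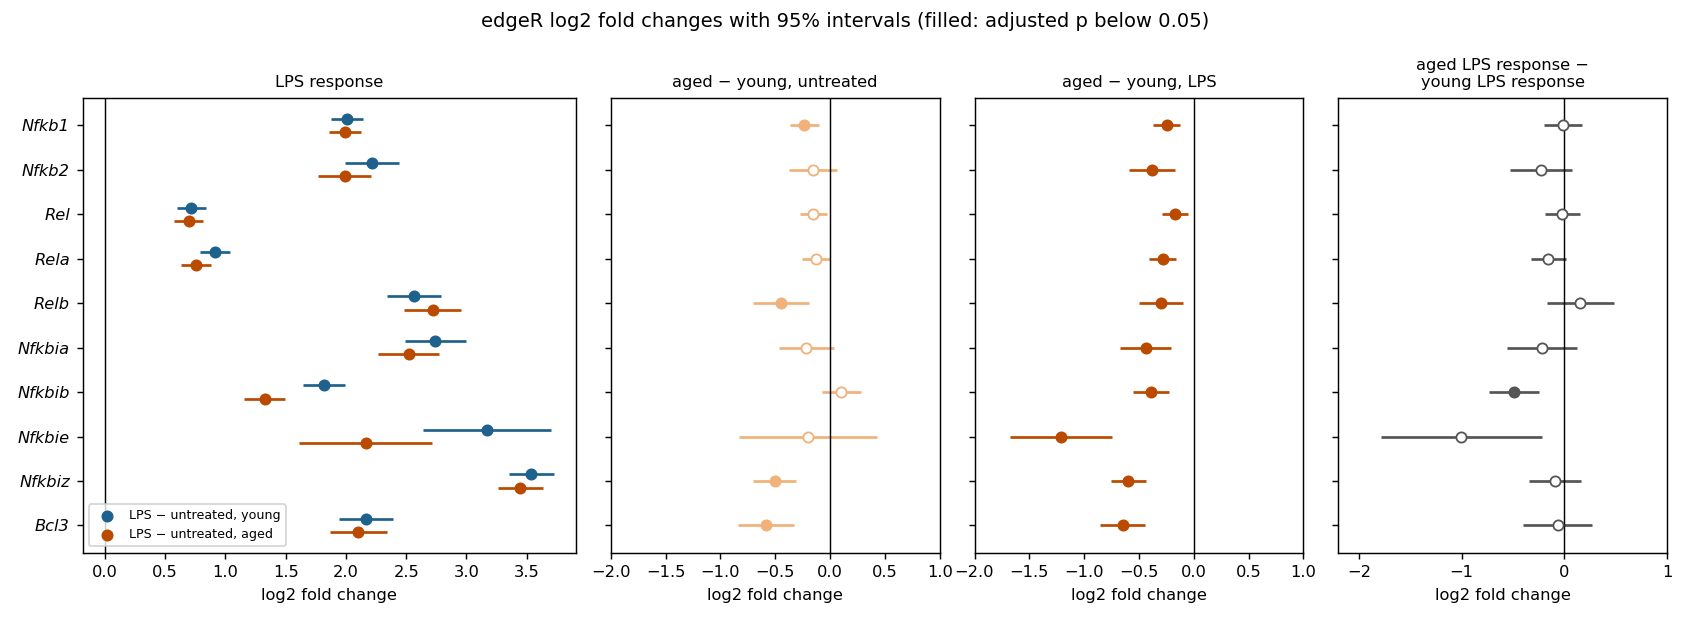
Log2 fold changes of the 10 genes from edgeR with 95% intervals (lines): the LPS response of young and aged cells, aged against young cells before and after LPS, and the aged response minus the young response. Filled circles passed an adjusted p of 0.05. After LPS all 10 aged-minus-young values lie below 0, and of the differences in response that of Nfkbib is filled.

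Whether the response itself differed by age was tested as the difference between the log2 responses (the interaction), which shares its samples with the comparisons above. 1 of 10 genes passed, Nfkbib, with a smaller response in aged cells. Of all tested genes, 2.27% passed in this direction and 6.39% in either direction, so a count of 1 of 10 is near the latter share. The median difference over the 10 genes was −0.12, against 0.02 over all genes. The response of Nfkbib was 1.32 in aged and 1.82 in young cells, a difference of −0.49 (SE 0.12, 95% interval −0.74 to −0.25, edgeR adjusted p = 0.0119), negative in 5 of 5 batches at −0.81 to −0.19. Without batch 1, 2 or 5 it was −0.41, −0.43 and −0.51 and missed the threshold (edgeR adjusted p = 0.0754, 0.161 and 0.0526).

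Nfkbie had the largest difference in response, −1.01 (95% interval −1.79 to −0.22), negative in 5 of 5 batches but ranging from −2.92 to −0.20, and did not pass (edgeR adjusted p = 0.125). Rela, at −0.16 (95% interval −0.33 to 0.02), was negative in 5 of 5 batches and did not pass either (edgeR adjusted p = 0.326). These counts of batches come from the same values as the test, and the share of all genes negative in every batch was not computed. For Nfkb1 (−0.01, −0.20 to 0.17), Rel (−0.02, −0.19 to 0.15), Nfkbiz (−0.09, −0.34 to 0.16) and Bcl3 (−0.07, −0.40 to 0.27) the values were near 0, those of Nfkb1 and Rel turning to 0.05 and 0.04 on library sizes alone. Nfkb2 (−0.23, −0.53 to 0.08), Nfkbia (−0.22, −0.56 to 0.12) and Relb (0.15, −0.17 to 0.48) lay between, Relb being the one with a positive value.

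On the linear scale the gain with LPS, the treated minus the untreated culture of the same batch, was smaller in aged cells for all 10 genes. The mean gain of Nfkbie was 12.6 ± 4.66 CPM in aged against 33.6 ± 14.5 CPM in young cells (SD, n = 5), or 37.4%. Those of Bcl3 (62.9%), Nfkbib (63.8%) and Nfkbiz (65.7%) were between these and the gains of Rela (71.5%), Nfkbia (71.5%) and Nfkb2 (73.0%). Relb (83.0%), Nfkb1 (83.9%) and Rel (86.6%) came closest to the young gain.

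The aged gain was the smaller one in 5 of 5 batches for 8 genes and in 4 of 5 for Rel and Relb, and the gains of the 2 ages did not overlap for Nfkb1, Nfkbiz and Bcl3. On library sizes alone the aged gain of Rel was 100.1% of the young one, so that its order is lost, whereas the others were 39.2% to 90.2%. These gains were not tested, since they come from the same samples as the comparison above. At a given log2 response a gain scales with the untreated level, so a lower start gives a smaller gain. For Nfkb1, Nfkbiz and Bcl3, with lower untreated means in aged cells, the log2 responses differed by −0.01, −0.09 and −0.07. Their intervals were −0.20 to 0.17, −0.34 to 0.16 and −0.40 to 0.27, so equal responses are not shown. The lower start of Nfkb1 lost its call in some settings, and the part of the start in these gains was not tested. How many of all genes had a smaller aged gain, or gains without overlap, was not computed.

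Levels were also compared per length (CPM per kilobase of exon). Length here is the union of all annotated exons of a gene, 12061 bases for Nfkb1 and 7466 for Rel against 4584 for Nfkb2. The transcripts present may be shorter, so the orders, shares and ratios between genes depend on this choice, and other lengths were not tried. Per length Nfkbia led the family in every group, at 30.0 ± 4.04 in young untreated and 201 ± 30.2 in young LPS-treated cultures (SD, n = 5). In untreated young cells its range overlapped that of Rela (23.8 ± 0.840), which was followed by Nfkb2 (17.6 ± 1.72) and Nfkbib (17.5 ± 1.51), whose ranges overlapped. Nfkb1 (9.98 ± 0.777) and Rel (8.72 ± 0.644) overlapped, Nfkbiz (3.94 ± 0.236) stood alone, and Relb (2.42 ± 0.193), Bcl3 (2.21 ± 0.466) and Nfkbie (1.37 ± 0.446) closed the order with overlapping ranges. The order in untreated aged cells differed in that Nfkbib (18.8 ± 2.00) stood before Nfkb2 (15.8 ± 1.24), again with overlapping ranges.

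After LPS, Nfkbia was apart from all others, at 148 ± 13.3 in aged cells. Nfkb2 came next at 81.9 ± 14.1 in young and 62.8 ± 8.91 in aged cells, then Nfkbib at 61.8 ± 7.56 and 47.1 ± 2.46. Nfkbiz, Rela and Nfkb1 formed a middle group, in which Nfkbiz stood first in young cells (45.8 ± 5.54, overlapping with Rela at 44.8 ± 4.03) and last in aged cells (30.2 ± 1.61, overlapping with Nfkb1 at 33.8 ± 1.01). Relb, Rel, Nfkbie and Bcl3 were the 4 lowest in both, with Nfkbie at 12.4 ± 4.39 in young and 5.32 ± 1.30 in aged cells.

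The make-up of the subunit mRNA shifted with LPS. Rela made up 38.1 ± 0.745% of the summed subunit level per length in young untreated and 39.1 ± 1.20% in aged untreated cultures (SD, n = 5), and 22.9 ± 0.812% and 23.4 ± 1.99% after LPS. Nfkb2 took the first place per length, from 28.1 ± 2.06% and 28.4 ± 2.54% to 41.7 ± 2.57% and 39.6 ± 3.25%. Treated and untreated cultures did not overlap in either share, and at a given treatment the ages did. The first place rests on the exon lengths used. In plain CPM Nfkb1 stood above Nfkb2 in young cells, at 120.4 against 80.8 CPM before and 485 against 376 CPM after LPS, and likewise in aged cells.

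The share of Rel went from 14.0 ± 1.09% to 7.38 ± 0.718% in young and from 14.1 ± 0.608% to 8.08 ± 0.593% in aged cells, and that of Relb from 3.87 ± 0.261% to 7.31 ± 0.452% and from 3.18 ± 0.419% to 7.41 ± 0.637%. That of Nfkb1 went from 16.0 ± 1.09% to 20.7 ± 1.65% in young and from 15.2 ± 1.43% to 21.5 ± 1.09% in aged cells, without overlap between treated and untreated cultures at either age. These shares add to 100% within a culture and so move together, and they describe mRNA, not protein.

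The summed level of the 3 classical inhibitors was 0.783 ± 0.0866 of the summed subunit level in young untreated and 0.823 ± 0.117 in aged untreated cultures. After LPS the ratio was 1.40 ± 0.114 in young and 1.27 ± 0.0949 in aged cultures, with ranges of 1.23 to 1.53 and 1.16 to 1.38 that overlapped. Nfkbia per Rela went from 1.26 ± 0.195 to 4.47 ± 0.354 in young and from 1.19 ± 0.210 to 4.05 ± 0.492 in aged cells. Within the IκB proteins, Nfkbie held 3.65 ± 0.851% in treated young and 2.23 ± 0.417% in treated aged cells, and Nfkbiz 13.9 ± 0.585% and 12.8 ± 0.721%.

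**Figure D4:**
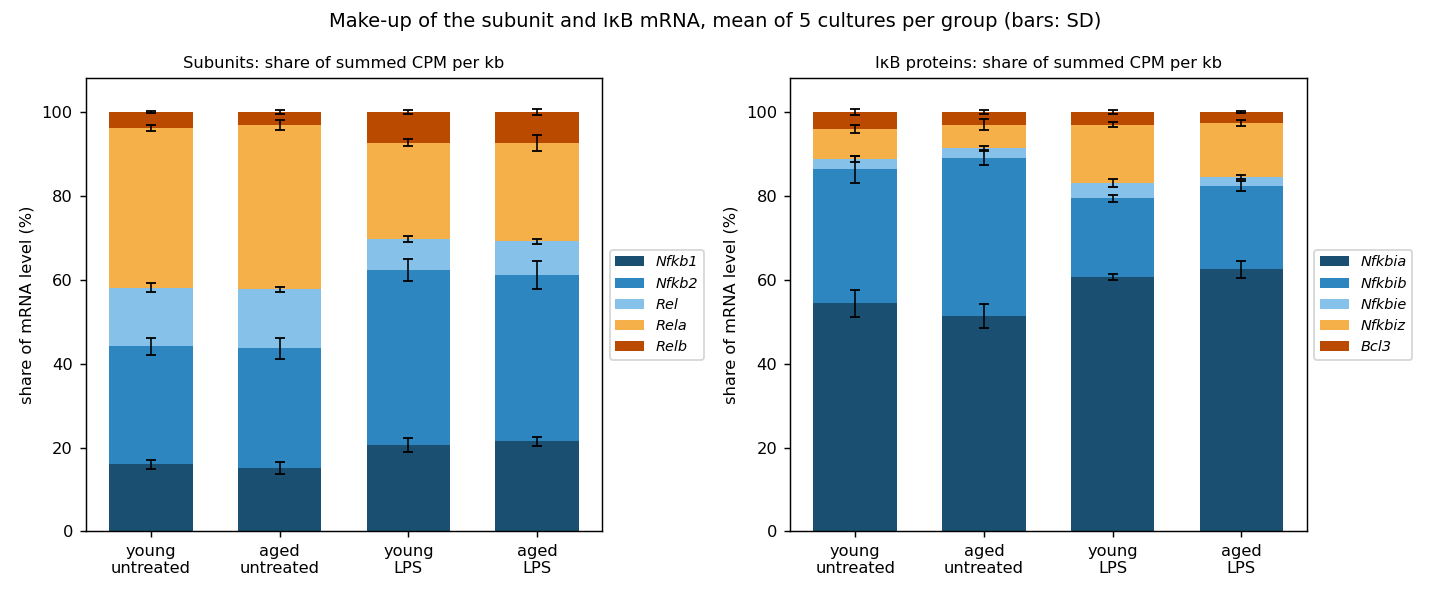
Share of each gene in the summed CPM per kilobase of the 5 subunits (left) and the 5 IκB proteins (right), as stacked means of 5 cultures in each group, with the SD of each share at its upper edge. The Rela segment shrinks from 38.1% and 39.1% to 22.9% and 23.4% with LPS, and the Nfkb2 segment grows from 28.1% and 28.4% to 41.7% and 39.6%.

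Genes that work with the family were read from lists of known function. Over all genes tested, 64.6% and 54.4% passed in either direction with LPS in young and aged cells, 11.5% and 29.0% by age before and after LPS, and 6.39% for the difference in response. Of 5 other genes named for IκB or NF-κB binding, Nfkbid (IκBNS, an atypical nuclear IκB protein) and Nfkbil1 rose with LPS at both ages and 0 fell. In young cells Nfkbid rose from 47.5 ± 7.19 to 90.9 ± 9.27 CPM (log2 fold change 0.94, SE 0.10, edgeR adjusted p = 1.30e-08), and in aged cells from 43.5 ± 4.89 to 96.0 ± 8.72 CPM (log2 fold change 1.14, SE 0.10, edgeR adjusted p = 9.04e-10). Nfkbil1 rose from 30.7 ± 2.35 to 55.3 ± 3.09 CPM (log2 fold change 0.85, SE 0.07, edgeR adjusted p = 1.47e-10) and from 30.4 ± 1.57 to 51.4 ± 4.89 CPM (log2 fold change 0.76, SE 0.07, edgeR adjusted p = 1.77e-09). By edgeR 0 of the 5 passed in a comparison by age before or after LPS, nor did any at an unadjusted p below 0.05 or by DESeq2. The medians over the 5 genes were 0.05 and 0.07 for the LPS responses, and those over all genes tested lay between −0.01 and 0.02 in every comparison.

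The next list held 13 genes of the IKK complex, which marks IκB proteins for destruction, and of related kinases and their adaptors. Of these, 8 rose and 3 fell with LPS in young cells and 7 rose and 2 fell in aged cells, with a median log2 fold change of 0.28 at both ages. Ikbke (IKKε, an inducible IKK-related kinase) rose from 29.5 ± 2.87 to 199.9 ± 29.0 CPM in young cells (log2 fold change 2.76, SE 0.11, edgeR adjusted p = 7.61e-16) and from 21.5 ± 3.06 to 164 ± 17.0 CPM in aged cells (log2 fold change 2.93, SE 0.11, edgeR adjusted p = 6.72e-16). Map3k8 (TPL2, a kinase held by p105) rose from 5.30 ± 0.618 to 21.8 ± 4.75 CPM (log2 fold change 2.03, SE 0.14, edgeR adjusted p = 1.32e-11) and from 3.75 ± 0.397 to 15.0 ± 2.21 CPM (log2 fold change 2.00, SE 0.15, edgeR adjusted p = 7.77e-11).

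By age, 7 of the 13 were lower in treated aged cells and 0 higher, with a median of −0.25. These included Ripk2, the kinase downstream of NOD receptors, at 19.9 ± 3.17 against 29.7 ± 4.78 CPM (log2 fold change −0.57, SE 0.11, edgeR adjusted p = 3.53e-04), and Map3k8 (log2 fold change −0.53, SE 0.13, edgeR adjusted p = 0.00269). Before LPS 2 of the 13 were lower, where 7.81% of all tested genes were lower and 11.5% passed in either direction, so this count is near the latter share. They were Ikbke (log2 fold change −0.45, SE 0.11, edgeR adjusted p = 0.00906) and Map3k8 (log2 fold change −0.51, SE 0.16, edgeR adjusted p = 0.0398). Map3k8 lost its call without batch 2, 3, 4 or 5 (edgeR adjusted p = 0.0581 to 0.198) and without young culture 1 or aged culture 3 (edgeR adjusted p = 0.0506 and 0.0670). Ikbke lost its call without batch 2 or 4 (edgeR adjusted p = 0.112 and 0.0613). The LPS response was smaller in aged cells for Ripk2 (log2 fold change −0.60, SE 0.16, edgeR adjusted p = 0.0281) and for Tbk1, a kinase of the interferon pathway (log2 fold change −0.28, SE 0.07, edgeR adjusted p = 0.0136). Ripk2 lost this call without batch 1, 2, 4 or 5 (edgeR adjusted p = 0.0784 to 0.122) and Tbk1 without batch 1 or 2 (edgeR adjusted p = 0.0524 to 0.141).

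Of 15 ubiquitin ligases and adaptors of the pathway, 9 rose and 3 fell with LPS in young and 6 rose and 4 fell in aged cells, with medians of 0.17 and 0.12. Birc3 (cIAP2, a ligase of TNF receptor complexes) rose from 11.7 ± 0.854 to 41.0 ± 7.45 CPM in young (log2 fold change 1.81, SE 0.11, edgeR adjusted p = 1.48e-12) and from 11.3 ± 0.592 to 26.3 ± 3.15 CPM in aged cells (log2 fold change 1.22, SE 0.11, edgeR adjusted p = 2.80e-09). Cul1, the scaffold of the ligase that marks phosphorylated IκB, rose by log2 1.26 (SE 0.05, edgeR adjusted p = 1.21e-15) in young and by log2 1.15 (SE 0.05, edgeR adjusted p = 9.26e-15) in aged cells. After LPS 5 of the 15 were lower and 1 higher in aged cells, with Birc3 (log2 fold change −0.64, SE 0.10, edgeR adjusted p = 5.84e-05) and Rnf31 (HOIP, the catalytic subunit of the linear ubiquitin ligase; log2 fold change −0.41, SE 0.08, edgeR adjusted p = 7.33e-04) the most changed. Both also had a smaller response in aged cells, Birc3 with log2 fold change −0.59, SE 0.15, edgeR adjusted p = 0.0237 and Rnf31 with log2 fold change −0.41, SE 0.12, edgeR adjusted p = 0.0483. Birc3 lost this call without batch 1, 2 or 3 (edgeR adjusted p = 0.0875 to 0.155), and Rnf31 without batch 1, 2, 4 or 5 (edgeR adjusted p = 0.105 to 0.222), without aged untreated culture 3 and on library sizes alone (edgeR adjusted p = 0.0691 and 0.0670). Before LPS, 0 of the 15 passed by edgeR or by DESeq2, and 3 had an unadjusted p below 0.05.

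Of 13 feedback inhibitors other than IκB proteins, 10 rose and 1 fell with LPS in young and 8 rose and 1 fell in aged cells, with medians of 0.73 and 0.58. Tnfaip3 (A20, a ubiquitin-editing enzyme) rose from 10.0 ± 0.916 to 166 ± 25.0 CPM (log2 fold change 4.05, SE 0.11, edgeR adjusted p = 2.10e-18) and from 6.50 ± 0.962 to 101 ± 9.49 CPM (log2 fold change 3.95, SE 0.11, edgeR adjusted p = 1.02e-17). Tnip3, an A20-binding protein, rose from 1.32 ± 0.346 to 25.0 ± 6.07 CPM (log2 fold change 4.23, SE 0.20, edgeR adjusted p = 1.75e-14) and from 0.923 ± 0.216 to 19.1 ± 3.45 CPM (log2 fold change 4.35, SE 0.21, edgeR adjusted p = 5.91e-14). Of the 13, 8 were lower in treated aged cells and 0 higher, among them Tnfaip3 (log2 fold change −0.72, SE 0.09, edgeR adjusted p = 3.86e-06) and its partner Tnip1 (log2 fold change −0.41, SE 0.09, edgeR adjusted p = 0.00203), with a median of −0.23. This count was 5 on library sizes alone and without batch 2. Before LPS 4 were lower, Tnfaip3 (log2 fold change −0.62, SE 0.12, edgeR adjusted p = 0.00221) and the RNase Zc3h12a (log2 fold change −0.56, SE 0.12, edgeR adjusted p = 0.00317) by most, and 2 were lower without batch 2 or 4.

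The textbook target genes of NF-κB, cytokines, chemokines, enzymes and survival factors, numbered 33, of which 28 could be tested (Csf2, Cxcl1, Il12b, Ptx3 and Vcam1 could not). With LPS 27 rose and 1 fell at either age, with a median log2 fold change of 5.56 in young and 5.04 in aged cells, or 4.91 with the 6 genes at the floor in untreated aged cells held at that floor. In young cells Il1b, the interleukin-1β gene, rose most, from 0.936 ± 0.775 to 351 ± 219.7 CPM (log2 fold change 8.50, SE 0.75, edgeR adjusted p = 1.21e-09), and the chemokine gene Cxcl2 from 0.818 ± 1.05 to 218 ± 79.4 CPM (log2 fold change 8.08, SE 0.40, edgeR adjusted p = 1.94e-12). In aged cells Csf3 and Cxcl2 had 0 counts in every untreated library and reached 54.3 ± 12.6 and 53.8 ± 9.53 CPM, at least 291.5-fold and at least 288-fold above the floor of 3 counts per library.

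After LPS 25 of the 28 target genes were lower in aged than in young cells and 0 higher, with a median of −0.76. The chemokine gene Ccl5 stood at 67.1 ± 36.0 against 345 ± 108 CPM (log2 fold change −2.36, SE 0.24, edgeR adjusted p = 3.84e-07) and Il1b at 73.8 ± 68.5 against 351 ± 219.7 CPM (log2 fold change −2.25, SE 0.47, edgeR adjusted p = 9.77e-04). Before LPS 12 were lower, with a median of −0.58, or −0.44 with the floor, and without batch 2 the count was 5. Csf3 (granulocyte colony-stimulating factor) had 0 counts in every untreated aged library and 0.891 ± 0.525 CPM in young ones, at least 4.78-fold lower, and Nos2, the inducible nitric oxide synthase gene, had at most 1 count in an aged library against 8 to 49 in young ones. The call of Nos2 was lost without batch 1, 2, 4 or 5 (edgeR adjusted p = 0.0683 to 0.164), without young culture 1 (edgeR adjusted p = 0.116) and without aged culture 3 (edgeR adjusted p = 0.0764).

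The log2 responses of target genes differed by age for 7 of 28, with 3 larger and 4 smaller in aged cells, and for 3 of 28 without batch 2 or 5. The 2 with the largest fitted differences, Csf3 and Traf1, had 0 counts and at most 3 counts in untreated aged libraries, so that the size of the fitted difference rests on the small number added to each count. Their levels after LPS were 54.3 ± 12.6 against 82.7 ± 12.1 CPM for Csf3 and 90.3 ± 13.2 against 158 ± 37.2 CPM for Traf1, lower in aged cells, and the call of Traf1 was lost without batch 2 or 5 (edgeR adjusted p = 0.0532 to 0.0814).

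The genes whose pattern over the 20 libraries was most like that of each member were found by the root-mean-square difference of log2 CPM after centring, among 10883 genes, for the 9 members whose group means spanned at least 1 on the log2 scale. Nearest were Rhoq, Mapkapk2 and Pik3r5 to Nfkb1 (0.12 to 0.14), Syk, Sod2 and Fam20c to Nfkb2 (0.14 to 0.15), and Kdm4a, Tbc1d1 and Surf4 to Rela (0.08 to 0.09). For Relb they were Ikbke, Rassf4 and Tnip1 (0.18 to 0.19), for Nfkbia Rassf4, Lacc1 and Rapgef2 (0.17 to 0.20), and for Nfkbib Usb1, Riox2 and Ogfr (0.12 to 0.15). For Nfkbiz they were Zc3h12a, Ier3 and Slc15a3 (0.16 to 0.22) and for Bcl3 Tent5c, Irak2 and Atf3 (0.16 to 0.21). Nfkbie was matched less closely, by Parp12, Stat2 and Trex1 (0.35 to 0.36), and Rel spanned 0.86 and was not matched. Within the family, Rel and Rela were the closest pair at 0.12, and Nfkb1 and Nfkb2 followed at 0.20. Rel and Rela also had the smallest spans of the family, 0.86 and 1.03, and the measure is not scaled by span, so genes that change little lie close by it. These are descriptions over libraries that fall into 4 groups.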

How the data were processed

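RNA-Seq was analysed in 20 cultures of BV-2 cells, 5 in each of 4 groups, taken from the labels. The authors deposited 1 table of raw read counts per gene, with no normalisation, from stranded poly(A) libraries read as paired ends on an Illumina NextSeq 2000. Per the labels and the submitters' processing notes, FastQC 0.11.8, STAR 2.6.1d and featureCounts 1.5.1 were used with the mouse build GRCm38 (GENCODE M21), and DESeq2 for their own comparisons. The strand and multimapping settings of featureCounts are not given in the sources used here, so reads of genes that overlap on opposite strands may have been shared.

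Counts were fitted with edgeR 4.0.16 (R 4.3.3) by the quasi-likelihood F-test in 1 fit of all 20 libraries, with TMM scaling and the default filter on low counts, which left 12799 of 55487 genes. P-values were adjusted by Benjamini-Hochberg over these genes with a threshold of 0.05, SEs were computed from the fold change and F, and intervals are 95%. CPM per kilobase used the length of the union of all annotated exons of a gene, and log2 CPM a prior count of 2. The floor was 3 counts, 0.165 to 0.296 CPM, which covers counting error only, as PCR copies were not marked by molecular identifiers. The tests were checked on simulated counts. Beside these, 15 other settings were computed, among them DESeq2 1.42.0, the batch number as a block, library sizes alone and leaving out each batch; leaving out aged untreated culture 3, and all settings for the lists, were chosen after seeing the data.

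The labels give the replicate number as a batch number, which pairs the cultures. Same-numbered untreated and LPS-treated cultures deviated together (mean r 0.276 in young and 0.260 in aged cells), whereas the r for pairs of different age averaged 0.042 to 0.111. No replicates of a group agreed within sampling noise (chi-square per degree of freedom of 2.37 to 25.7 over genes).

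The members and all lists were chosen with earlier results of these data known. Genes were named by a rule: all 10 members, and from each list and comparison the 2 genes with the largest absolute log2 fold change among called genes whose mean log2 CPM was 1 or more. The 3 most alike genes were named for each member. Cul1, Cxcl2 and the others in the lists entered by this rule.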

Additional observations from a re-analysis of the deposited data

Results flagged for a closer look

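In 2 of 40 sets of 5 cultures, 1 culture stood apart from the others by Dixon's criterion, which chance meets in about 1 set in 20. Nfkb1 in aged untreated culture 3 stood at 84.5 CPM against 104 to 111 CPM in the 4 others, and Rela in young untreated culture 2 stood at 68.8 CPM against 73.4 to 75.2 CPM.

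The LPS response differed between the ages, by the test of the difference itself, for Nfkbib among the NF-κB and IκB genes (log2 −0.49) and for 6 named genes of the lists. It was smaller in aged cells for Ripk2 (−0.60), Birc3 (−0.59), Rnf31 (−0.41) and Tbk1 (−0.28). The fitted difference was positive for Csf3 (6.09) and Traf1 (4.00), whose untreated aged libraries held 0 counts and at most 3 counts, so that these sizes depend on the small number that the fit adds to each count. Of these 7 calls, that of Csf3 alone held without each batch in turn.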

How the results depend on the processing

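Over 15 other settings, all 300 LPS responses of the 10 genes stayed higher and past the threshold. After LPS, 136 of 150 differences by age kept their call and 14 lost it, and before LPS 140 of 150 kept their side, 8 lost and 2 gained a call. Of 140 differences in response, 125 kept their side, 4 lost the call and 11 changed sign. The batch number as a block changed no call of the 10 genes other than that of Rel before LPS. The cause of these changes was not tested.

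At an adjusted p below 0.01, the members called were 2 by age before LPS and 0 for the difference in response. Leaving out cultures gave 2 to 5 and 0 to 1. The difference in response of Nfkb1 and Rel was 0.0469 and 0.0398 on library sizes alone and 0.0282 and 0.0152 without young untreated culture 1. Leaving out cultures, it ran from −0.100 to 0.0586 for Nfkb1, −0.0689 to 0.0152 for Rel, −0.227 to 0.0193 for Bcl3 and −0.00329 to 0.265 for Relb.

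For the lists, calls by age before LPS at an adjusted p below 0.01 were 1 for the kinases, 2 for the feedback inhibitors and 5 for the targets. Leaving out cultures they were 0 to 3, 2 to 4 and 5 to 10, and 0 to 1 for the other IκB genes, with 1 kinase without young untreated culture 1 or aged untreated culture 3. Differences in response were 0 kinases, 0 ligases and 3 targets at an adjusted p below 0.01, 1 kinase and 1 ligase with no filter, 1 ligase on library sizes alone and without aged untreated culture 3, and, leaving out cultures, 0 to 2, 0 to 2 and 3 to 6. After LPS, 5 feedback inhibitors were lower on library sizes alone, with only the groups compared and at an adjusted p below 0.01, and 5 to 8 leaving out cultures. On library sizes alone 4 other IκB genes passed with LPS in young cells. With at least 10 counts in every library, which tests fewer genes, 17 targets passed with LPS at either age and 16 by age after LPS.

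Library sizes alone changed the share of higher genes among all calls from 48.2% to 27.3% and from 50.6% to 28.4% for LPS in young and aged cells, from 48.3% to 70.1% by age after LPS and from 64.4% to 81.3% for the difference in response. Over all genes, calls by age before LPS went from 1475 to 622 at an adjusted p below 0.01 and to 548 without batch 2, those by age after LPS from 3717 to 2333 and 2156, and those of the difference in response from 818 to 328 and 189, with 532 without batch 4 and 410 without batch 5. Depth limits Nfkbie and Bcl3 most, with 31 to 85 and 47 to 116 counts in untreated libraries.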

Other observations

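Of the 5 treated young cultures, cultures 4 and 5 held the 2 lowest levels for 8 of the 10 NF-κB and IκB genes. In treated aged cultures the same was seen for 1 gene, and the share over all genes was not computed for either age. Nfkbie showed it most, at 21.6 and 26.7 CPM against 41.5 to 54.3 CPM in young cultures 1 to 3, whereas Bcl3 in young cultures 4 and 5, at 24.8 and 25.6 CPM, stood above cultures 1 and 2.

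The IκB make-up also moved with LPS. Nfkbib went from 31.9 ± 3.29% to 18.7 ± 0.849% of the summed IκB level per length in young cells and from 37.6 ± 1.74% to 19.9 ± 1.13% in aged cells. Nfkbia per Nfkbib rose in both, from 1.72 ± 0.276 to 3.25 ± 0.173 and from 1.37 ± 0.139 to 3.15 ± 0.259. Nfkb2 per Relb was 9.00 ± 0.834 in untreated aged and 7.32 ± 1.00 in untreated young cells, and 5.39 ± 0.727 and 5.70 ± 0.322 after LPS. These ratios were not tested.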
